A study of Arabidopsis thaliana with 2 samples.

Results

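Aux/IAA repressors and GH3 auxin-conjugating enzymes are both part of the feedback on auxin, the growth hormone indole-3-acetic acid (IAA). Transcripts of 6 such genes were compared between dark-grown Arabidopsis thaliana seedlings given 1 h of red light and seedlings left in the dark. The members are the genes that a probe set of the array names as IAA18, IAA20 or IAA29 (Aux/IAA) or as WES1, GH3.3 or GH3.17 (GH3). Each of the 6 has 1 probe set, out of 13356 genes that have a probe set naming them alone. All 6 passed the filter on dim probe sets, as did 7282 genes in all.

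The red light group was a pool of 5 seedlings, dark-grown for 7 days at 23 °C and then given 1 h of red light at about 10 µmol per square metre and second, with a transmission maximum at 630 nm. The dark group was a pool of 5 seedlings of the same age that stayed in darkness for that hour. All seedlings were whole Landsberg erecta plants, an accession that carries the erecta mutation, and all seeds had been given 2 days of cold and 2 h of white light. The labels describe each pool as seedlings of a single Petri plate. Each group has 1 array and so no replicate: no test, p-value or error over samples exists, differences are given by size, and 1 pool cannot be told apart from its treatment.

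Aux/IAA proteins bind auxin response factors and keep auxin-responsive genes off. Auxin joins an Aux/IAA protein to an F-box receptor of the TIR1/AFB group, which leads to its breakdown and frees the response factors. Many Aux/IAA genes are themselves switched on by auxin, which closes a loop of negative feedback. GH3 enzymes of the auxin group join IAA to amino acids, which stores it or marks it for loss, and several of their genes are also induced by auxin. In dark-grown seedlings the phytochrome-interacting factors (PIFs) favour a long hypocotyl, and red light turns phytochrome to its active form, which leads to breakdown of PIFs. The comparison asks how transcript levels stand after 1 h of that light.

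In the red-lit seedlings 4 of the 6 genes were lower by 2-fold or more, and 0 were higher by as much. Among all measured genes 2.44% were at least 2-fold lower and 4.82% at least 2-fold higher. At a stricter 3-fold, 3 of the 6 genes were lower, beside 0.755% of all measured genes. The 4 were split evenly between the families: IAA29 and IAA20 of the Aux/IAA genes, WES1 and GH3.3 of the GH3 genes. Each family also held a gene that stayed within 2-fold, IAA18 on the higher side and GH3.17 on the lower. The genes were picked with earlier results of these arrays known, so the count describes them and is no evidence about auxin genes at large.

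The whole-array measures bear on how far these sizes can be read. Over all probe sets the red light array had a median signal of 203, against 191 for the dark array, and the median log2 ratio of the measured genes was 0.00. The highest of 27 probe sets for bacterial transcripts, a measure of background, reached 20.5 with red light, against 11.5 in the dark. Of 18 hybridization controls 17 were lower on the red light array, with a median log2 ratio of -0.30. Control probe sets gave a 3' to 5' signal ratio, a sign of RNA quality, of 6.55 for actin with red light, against 8.44 in the dark. For GAPDH it was 1.60 with red light, against 2.05 in the dark. A second actin pair ran the other way, at 40.1 with red light, against 35.8 in the dark. A second GAPDH pair was nearly level, at 2.06 with red light, against 2.11 in the dark. The part of RNA quality in the members' ratios was not tested. Putting the median of the hybridization controls at 0 would raise each log2 ratio by the size of that median.

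**Figure D1:**
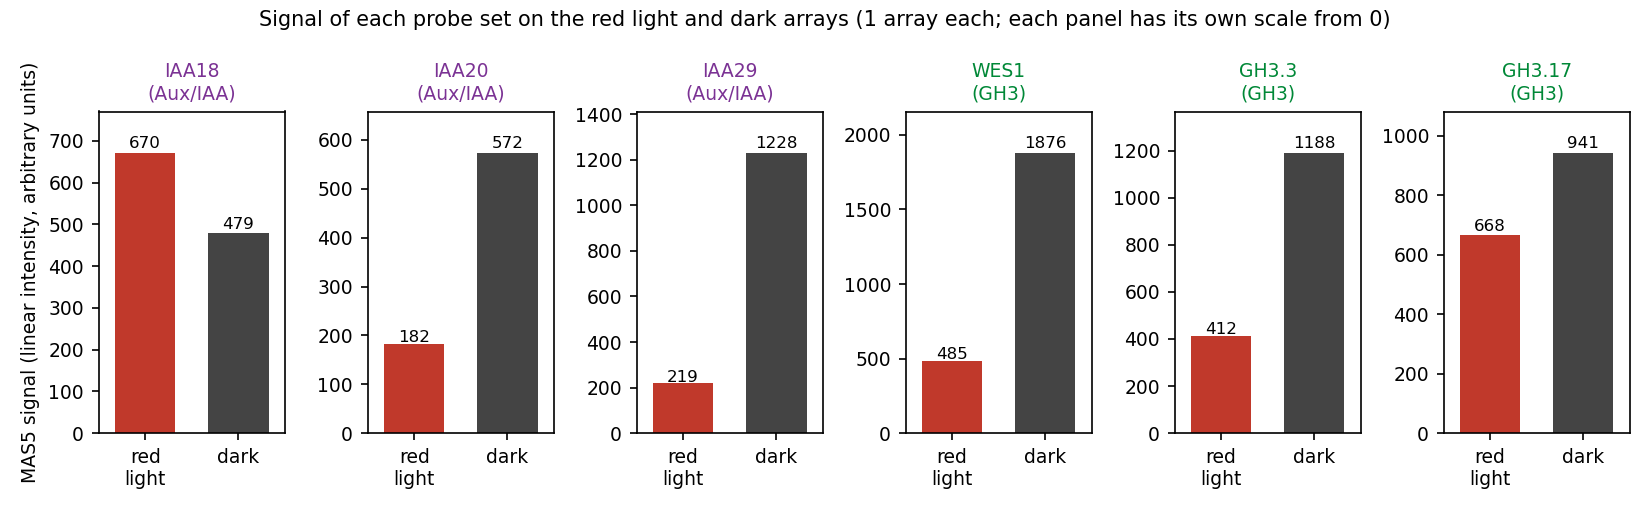
Signal of each probe set (linear MAS5 intensity, arbitrary units, each panel on its own scale from 0) for red light (left bar) and dark (right bar), 1 array each and therefore without error bars. The red light bar is the lower one in 5 of the 6 panels, and in IAA18 it is the higher one. Among all measured genes 49.9% had the lower signal with red light.

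Among the Aux/IAA genes, IAA29 (AT4G32280), a direct PIF target known for its rise in shade, had a signal of 219.2 after red light, against 1228 in the dark. The red light signal was thus 17.9% of the dark signal, a log2 ratio of -2.49, or 5.60-fold lower. Only 14 of the 7282 measured genes had a lower ratio. Both signals were well clear of background, at 10.7 times the highest background probe set after red light and 107 times it in the dark.

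IAA20 (AT2G46990) encodes an unusual Aux/IAA protein that lacks the degron through which auxin triggers breakdown, so it is long-lived. Its signal was 182.0 after red light, against 572.4 in the dark. The red light signal was 31.8% of the dark one, a log2 ratio of -1.65, or 3.15-fold lower, and 50 measured genes had a lower ratio. The red light signal was 8.88 times the highest background probe set on that array.

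IAA18 (AT1G51950), known from gain-of-function mutants with altered embryo patterning and fewer lateral roots, differed from both. Its signal was 669.8 after red light, against 479.3 in the dark. This is 1.40-fold higher, a log2 ratio of 0.48, and 1201 measured genes (of 7282) had a higher ratio. IAA18 was the only one of the 6 genes with a higher signal after red light, and it was short of the 2-fold threshold.

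Among the GH3 genes, WES1 (AT4G27260), also called GH3.5, encodes an enzyme that acts on IAA and on salicylic acid and whose gain-of-function mutant is a dwarf. Its signal was 484.8 after red light, against 1876 in the dark. The red light signal was 25.8% of the dark one, a log2 ratio of -1.95, or 3.87-fold lower. Only 27 measured genes had a lower ratio.

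GH3.3 (AT2G23170), a gene quickly induced by auxin whose enzyme joins IAA to amino acids, had a signal of 411.7 after red light, against 1188 in the dark. That is 34.7% of the dark signal, a log2 ratio of -1.53, or 2.89-fold lower. There were 59 measured genes with a lower ratio. GH3.3 and WES1 thus stood on the same side of 0 as IAA29 and IAA20.

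GH3.17 (AT1G28130), whose enzyme prefers glutamate and is known to restrain hypocotyl growth, was much less apart. Its signal was 667.8 after red light, against 941.0 in the dark, which leaves 71.0% of the dark signal. The log2 ratio was -0.49, or 1.41-fold lower, and 905 measured genes had a lower ratio. GH3.17 lay on the lower side as the other GH3 genes did, but short of 2-fold.

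**Figure D2:**
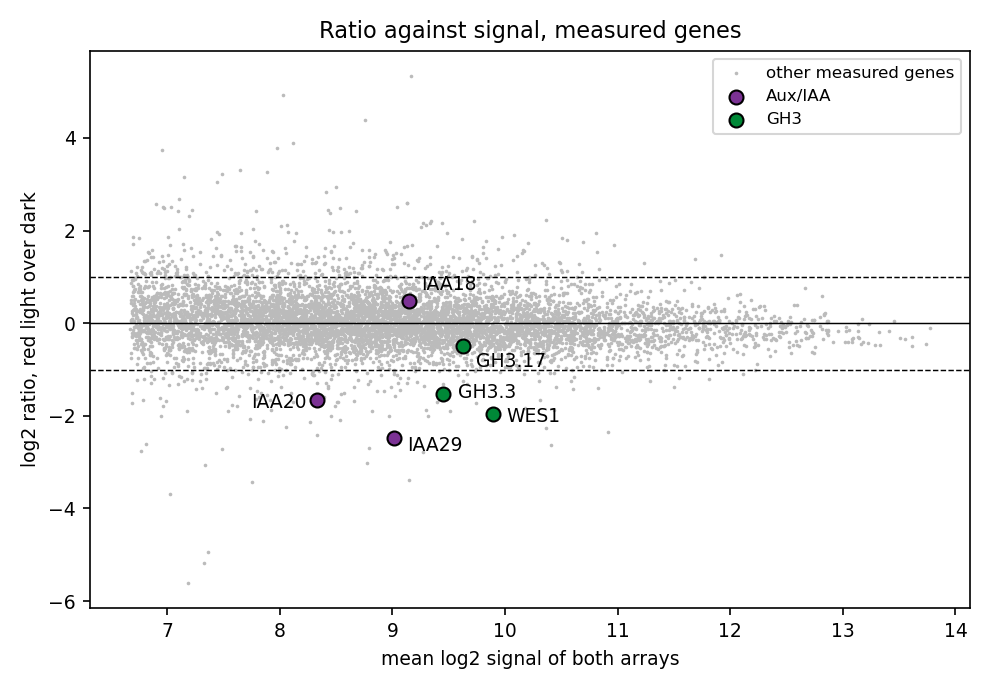
Log2 ratio of red light over dark (vertical axis) against the mean log2 signal of both arrays (horizontal axis) for the 7282 measured genes, with Aux/IAA members in purple, GH3 members in green and dashed lines at 2-fold. IAA29, WES1, IAA20 and GH3.3 lie below the lower dashed line and outside the main cloud at their signal, while GH3.17 and IAA18 lie inside the cloud.

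The spread of ratios depends on brightness, so the 4 lower genes were also set beside genes of their own signal range. The measured genes were divided into 5 equal classes by mean log2 signal. WES1, GH3.3 and GH3.17 fell in the fourth class from the dimmest, where 1.3% of genes were at least 2-fold lower and the genes' log2 ratios had an SD of 0.51. IAA29 and IAA18 fell in the third, where the share was 2.4% and the SD 0.59, and IAA20 in the second, where they were 3.23% and 0.62. These SDs are among genes on 1 pair of arrays and are no replicate error.

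The families did not separate. The median log2 ratio was -1.53 over the 3 GH3 genes and -1.65 over the 3 Aux/IAA genes, beside 0.00 over all measured genes. The GH3 median minus the Aux/IAA median was 0.12, while the means, -1.33 for GH3 and -1.22 for Aux/IAA, differed by -0.11 in the other direction. The spread inside each family was far wider than either difference: 1.46 on the log2 scale between WES1 and GH3.17, and 2.97 between IAA29 and IAA18. With 3 genes in a family, the medians are the ratios of GH3.3 and IAA20.

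From lowest to highest ratio the order was IAA29, WES1, IAA20, GH3.3, GH3.17 and IAA18, so Aux/IAA and GH3 genes alternate among the first 4. The only within-array measure of disagreement is the set of 37 genes with 2 measured probe sets, whose log2 ratios differed by a median of 0.27. IAA20 and GH3.3, which were 0.12 apart, differed by less than that, and WES1 and IAA20, 0.30 apart, by about as much. The gap of 0.53 between IAA29 and WES1 was larger than that median, but 14 of the 37 pairs differed by over 0.5 and 1 by over 1. The gaps of 1.03 between GH3.3 and GH3.17 and 0.98 between GH3.17 and IAA18 were the widest in the order. Each member has only 1 probe set, so none could be checked against another probe set of its own gene.

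**Figure D3:**
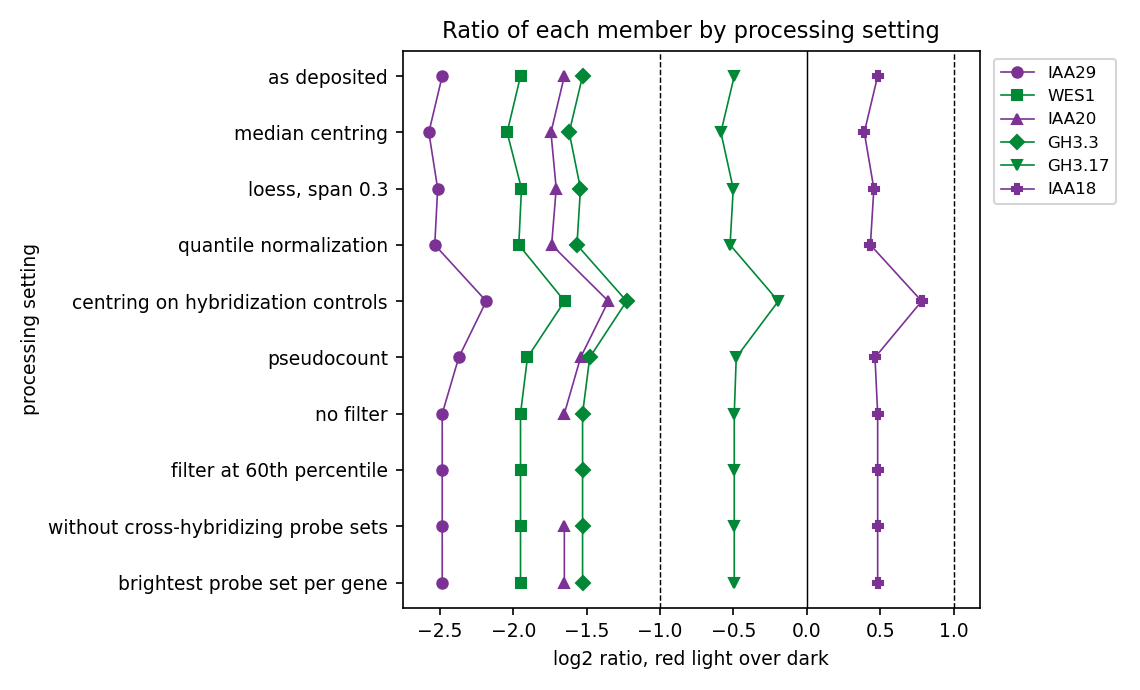
Log2 ratio of red light over dark for each of the 6 genes (horizontal axis) under the deposited scale and 9 processing alternatives (vertical axis), with Aux/IAA genes in purple, GH3 genes in green and dashed lines at 2-fold. IAA29, WES1, IAA20 and GH3.3 stay left of the lower dashed line wherever they are plotted; IAA20 has no point with the filter at the 60th percentile, which it does not pass.

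The 4 lower genes stayed at least 2-fold lower under every scaling tried. The log2 ratio of IAA29 lay between -2.58 and -2.19 over 9 alternatives, that of WES1 between -2.04 and -1.65 and that of GH3.3 between -1.62 and -1.23. That of IAA20 lay between -1.74 and -1.35 over the 8 alternatives that kept it. GH3.17 lay between -0.59 and -0.19 and IAA18 between 0.39 and 0.78, both within 2-fold throughout. The upper end of all 6 ranges comes from centring on the hybridization controls, under which 1.25% of all measured genes were at least 2-fold lower.

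The rest of each family could hardly be seen with the annotation used. Of the other 26 Aux/IAA genes written in the list, 4 had a probe set naming them alone (IAA30, IAA31, IAA33 and IAA34). Of the other 8 GH3 genes written, which are not the whole family, 2 did (GH3.1 and GH3.9). None of these 6 counted as measured, and their signals lay between 8.0 and 47.5 after red light, against 5.5 to 48.5 in darkness. IAA30, a close relative of IAA20 that also lacks the degron, had a signal of 40.7 with red light, against 46.4 in the dark. GH3.1, another enzyme of the auxin-conjugating group, had 34.8 with red light, against 37.7 in the dark. IAA33 had 21.0 after red light, next to the highest background probe set there, and 5.5 in the dark, below it, so no fold is given. IAA31 and GH3.9 were below the highest background probe set on the red light array. The remaining 22 Aux/IAA and 6 GH3 genes written are not analysed here, and neither are family genes outside the lists.

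Other steps of the auxin pathway were also thinly covered. There were 6 further lists: response factors, receptors and their ubiquitin ligase, transport, synthesis, conjugate hydrolysis with other inactivation, and early response. In these 94 genes were written, 10 had a probe set naming them alone and 5 were measured. None of the 15 response factors, 12 receptor and ligase genes or 19 transport genes had such a probe set. In the list that includes hydrolysis of auxin conjugates, 4 of 13 genes had one. These were UGT84B1, UGT74D1, DAO1 and DAO2, so no conjugate hydrolase was covered. The annotation used did not list 8730 of the 22810 probe sets. A gene without such a probe set may therefore still be on the array. Of the 5 measured genes 1 (HAT2) was at least 2-fold lower and 0 at least 2-fold higher, beside 2.44% and 4.82% of all measured genes. With 5 genes, no weight is put on this count.

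Outside both families, the early auxin response was represented by HAT2 and LBD16. HAT2 (AT5G47370), an auxin-induced homeodomain-leucine zipper gene, had a signal of 785.9 after red light, against 1681 in the dark. It was 2.14-fold lower, a log2 ratio of -1.10, which shrank to -0.80, short of 2-fold, when the hybridization controls were put at 0. LBD16 (AT2G42430), a target of auxin response factors in lateral root formation, had 335.8 after red light, against 400.6 in the dark. Its log2 ratio of -0.25 became 0.05 with that centring, so its direction depends on the scale.

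Auxin inactivation by routes other than GH3 had 3 measured genes, and none was lower by 2-fold. Only 2.44% of all measured genes were, so this count does not set the 3 apart. UGT74D1 (AT2G31750), a glucosyltransferase that acts on IAA and its oxidation product, had a signal of 1358 after red light, against 839.5 in the dark, a log2 ratio of 0.69. AT1G14120, known as DAO2, had 1683 after red light, against 1096 in the dark, a log2 ratio of 0.62. AT1G14130, known as DAO1 and the main dioxygenase of auxin oxidation, had 740.5 after red light, against 701.9 in the dark. Its log2 ratio of 0.08 became -0.01 with median centring. The ratios of UGT74D1 and DAO2 were above 0 under all 9 alternatives, so the 3 GH3 genes lay on the other side of 0 from these 2. Among all measured genes 49.9% lay below 0, and the side of DAO1 depends on the scale. No weight is therefore put on this contrast of sides.

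**Figure D4:**
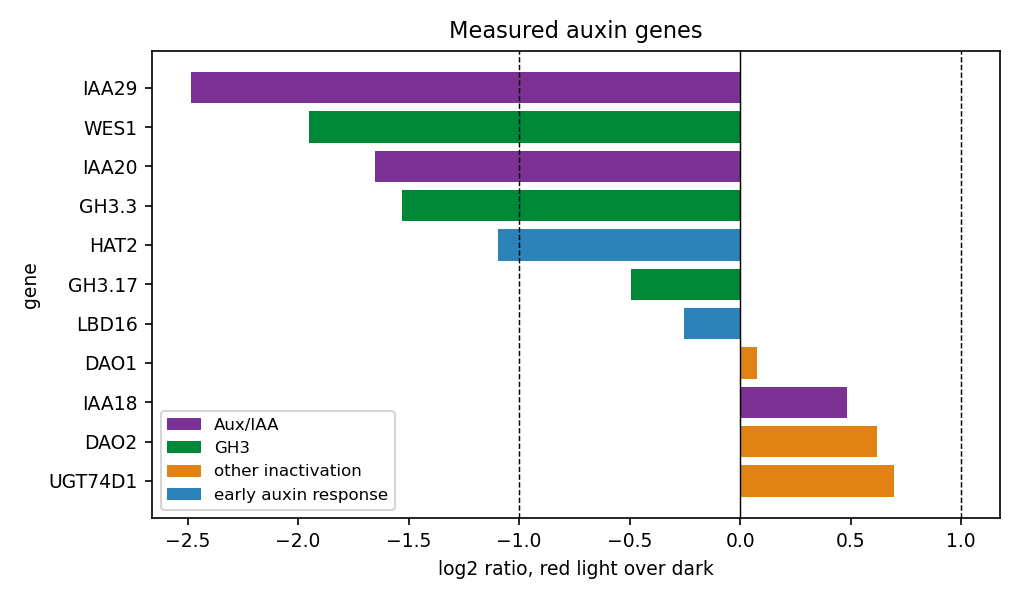
Log2 ratio of red light over dark (horizontal axis) for the 11 measured auxin genes (vertical axis), ordered by ratio, with dashed lines at 2-fold and colours for the family or list. IAA29, WES1, IAA20, GH3.3 and HAT2 lie past the lower line, and UGT74D1, DAO2, IAA18 and DAO1 lie above 0, DAO1 with a ratio of 0.08 whose sign depends on the scale.

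Auxin synthesis was represented by YUC2, YUC4 and YUC6, flavin monooxygenase genes, and none counted as measured. YUC2 (AT4G13260) had a signal of 41.6 after red light, against 93.3 in the dark. YUC4 had 37.0 after red light, against 33.1 in the dark. YUC6 had 42.1 after red light, against 49.9 in the dark. All 3 were under the mean signal of 102 needed to count as measured, so no weight is put on their ratios.

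Genes with a ratio like that of IAA29 or WES1 were sought among the 1083 measured genes with a symbol of their own. Over 2 arrays the likeness rests on 1 ratio per gene. Nearest to IAA29 (-2.49) were ICL, the glyoxylate cycle gene isocitrate lyase, at -2.35, hemb2 at -2.72 and COR27, a cold-induced gene linked to the clock, at -2.13. Nearest to WES1 (-1.95) were the oleosin gene OLEO3 at -1.997, the transcription factor gene WRKY22 at -2.01 and WAG2, a kinase gene acting on the placement of auxin efflux carriers, at -1.87.

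Markers of seedling tissues and stage were compared too. Of 10 such genes written, 6 had a probe set naming them alone, of which 3 were measured (PYK10, ICL and PORB). All 6, and so all 3 measured ones, had the lower signal on the red light array. Among all measured genes 49.9% did, a share that covers no genes as dim as the other 3 markers. The signals of the 6, mostly those of the 3 measured genes, added up to 11664 with red light, against 19495 in the dark. The 6 were the root hair genes EXPA7 and EXPA18, PYK10 of root and hypocotyl, the seed storage gene PAP85, ICL and the protochlorophyllide oxidoreductase gene PORB. The log2 ratios of PYK10 and PAP85 were -0.33 and -0.44, beside a hybridization control median of -0.30. PORB was further from it, with a log2 ratio of -0.83 and a signal of 2921.9 with red light, against 5188.5 in the dark. EXPA7 and EXPA18 lay below the highest background probe set after red light, with 8.8 and 13.5. In the dark they had 26.4 and 52.3, above the highest background probe set there (11.5). ICL had a log2 ratio of -2.35, and its signal was 855.6 with red light, against 4352 in the dark. None was at 0 on either array, and their part in the ratios of the Aux/IAA and GH3 genes was not tested. In whole seedlings, fewer cells expressing a gene and less RNA per cell cannot be told apart.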

How the data were processed

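The authors deposited 1 linear intensity per probe set and array. Per the submitters' processing notes these come from MAS5, version 5, with settings not given in the sources used here. Total RNA (20 ng) was amplified before labelling, per the labels' protocols. The trimmed mean (2% off each end) was 500.03 on both arrays, so no further scaling was applied. Of 22810 probe sets, 13513 named 1 gene in the platform annotation and 8730 were not listed in it. Members were matched by symbol and checked by locus in a TAIR10.1 gene table, used for names only.

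Each probe set's log2 ratio set red light over dark, and ratios were averaged per gene. A gene counted as measured when its mean log2 signal reached the 40th percentile (a signal of 102), and was called at 2-fold. The steps were run on simulated data with planted changes, which checks the calculation and not the error of these arrays. The number of arrays limits the precision. Members and lists were chosen with earlier results of these data known. All 6 members are named, with the measured genes of each auxin list (at most 4) and the 3 genes nearest in ratio to IAA29 and to WES1. Genes that did not count as measured and the tissue markers were named after their values were seen. Alternatives were median centring, loess (span 0.3), quantile normalization, centring on hybridization controls, a pseudocount of 22.1, the filter dropped or set at the 60th percentile, no cross-hybridizing probe sets, only the brightest probe set of a gene, and 1.5-fold or 3-fold as threshold. Python 3.11.15, pandas 2.3.3 and statsmodels 0.14.6 were used.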

Additional observations from a re-analysis of the deposited data

How the results depend on the processing

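No paired analysis was possible because the design holds a single array for either treatment. A log2 value was taken as moved when it changed by more than 0.27, the median difference between 2 probe sets of 1 gene. A count of members was taken as the same when it changed by no more than 1.5-fold. Centring on the hybridization controls moved the GH3 median to -1.23 and the Aux/IAA median to -1.35. The filter at the 60th percentile dropped IAA20, which left the Aux/IAA median at -1.001 over IAA29 and IAA18 and turned the GH3 minus Aux/IAA difference from 0.12 to -0.53. The sign of that difference is therefore not settled. The count of 4 members at least 2-fold lower was 3 with that filter and 3 at 3-fold, where GH3.3 dropped out, and 4 under the 9 other alternatives. Among all measured genes, there were 178 lower and 351 higher genes as reported, 1278 and 1822 without the filter, 89 and 172 at the 60th percentile, 652 and 925 at 1.5-fold, 55 and 93 at 3-fold, and 91 and 705 with centring on the hybridization controls. Each member rests on 1 probe set, on an array designed from the Columbia genome and here hybridized with Landsberg erecta RNA. Close GH3 paralogs may share signal, which was not tested.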
